A study of Mus musculus with 8 samples.

Results

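The genes examined here encode 10 proteins of the Polycomb repressor system: *Ezh1*, *Ezh2*, *Eed*, *Suz12*, *Bmi1*, *Rnf2*, *Ring1*, *Cbx2*, *Cbx7* and *Jarid2*. They were chosen by name, by a rule that uses no measured value, though with earlier results of these data known. They were 10 of 21951 protein-coding genes in the GENCODE annotation of mm10. For each gene, PBRM1 and BRG1 peaks were collected within 2000 bp of any annotated TSS (promoter) and in the rest of the gene body. Peaks came from chromatin immunocleavage sequencing (ChIC-Seq), in which an antibody directs a nuclease to the chromatin near its target. PBRM1 is a subunit particular to the PBAF form of the SWI/SNF chromatin remodeling complex, and BRG1 is one of its ATPases.

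The cells were primary mouse uterine stromal cells (mUSCs) of WT females aged 8 to 12 weeks, taken on D4. The labels give both day 4 of pregnancy after mating and pseudopregnancy. A preparation started from 5 to 10 uterine horns, and each library was made from 50000 cells fixed for 5 minutes after a short culture. All libraries shared this genotype, day and preparation and differed in the antibody, with 3 replicates against PBRM1 and 3 against BRG1, so that no treated, mutant or nonpregnant cells stood beside them. The 2 IgG libraries were not analysed here. No label states that replicates came from separate animals, and p-values therefore measure only the spread between these libraries.

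Polycomb proteins work in 2 families of complexes. PRC2, built on EZH1 or EZH2 with EED and SUZ12, methylates histone H3, and PRC1, built on RING1 or RNF2 with a PCGF protein such as BMI1, ubiquitinates histone H2A, while CBX proteins bind the methyl mark. Acting together, they keep developmental genes silent, and SWI/SNF complexes are known to act against them at many of these genes. EZH2 is also known to decline as human endometrial stromal cells decidualize.

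PBRM1 replicates held 8868777 to 16505239 fragments and 21912 to 26363 peaks. BRG1 replicates held 11506964 to 14595089 fragments and 36656 to 40610 peaks. Fold enrichment, the fragment pileup at the summit over the local background, was the measure of peak strength. It is not on a common scale between libraries: across all peaks its median was 5.80, 5.15 and 4.75 in PBRM1 replicates 1, 2 and 3, whose depth rose in that order. Each promoter was therefore also given as a percentile, the rank of its strongest peak among the 21951 genes of the same library, with genes lacking a peak sharing the lowest rank. Of 7 stromal markers, 6 had a promoter peak in all 6 replicates (*Vim*, *Pdgfra*, *Pdgfrb*, *Nr2f2*, *Hand2* and *Pgr*), against 0 of 6 epithelial, 0 of 2 leukocyte and 0 of 2 endothelial markers. Of the epithelial markers, 5 had one in some replicates (*Epcam*, *Cdh1* and *Krt8* in all 3 BRG1 replicates), as did the endothelial marker *Pecam1* in 2 PBRM1 and 3 BRG1 replicates, and *Cldn4*, *Ptprc*, *Cd68* and *Cdh5* had none in any. A peak is a mark of binding and not of expression.

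Of the 10 Polycomb genes, 9 carried a promoter peak in all 6 replicates, and *Bmi1* carried a promoter peak in none. Across all protein-coding genes, 51.9% had a promoter peak in all 6 replicates and 29.6% in none. In each replicate the members with a peak were thus 9 of 10, beside 60.0%, 60.7% and 55.3% of genes in PBRM1 replicates 1, 2 and 3 and 66.1%, 65.1% and 65.0% in BRG1 replicates 1, 2 and 3, with 52.2% in all 3 PBRM1 and 61.4% in all 3 BRG1 replicates. All 10 genes had a promoter peak in both pooled lists, as did 68.7% of genes for PBRM1 and 72.1% for BRG1. The shares depended on base composition: among 8297 genes with a CpG-rich promoter, 84.1% had a peak in all 6 replicates and 1.88% in none, and among 8242 CpG-poor genes the share in all 6 was 24.0%. All 9 members with a RefSeq promoter window were CpG-rich, defined as a CpG observed/expected ratio of at least 0.6 and at least 50% G and C over 300 bases.

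The RefSeq sequences (GRCm38.p6) just upstream of 4 starts show what the members share and where they part. *Suz12* (chr11:79992856-79993105, plus strand) and *Rnf2* (chr1:151500992-151501241, minus strand) had strong promoter peaks with summits inside the printed bases. *Ring1* (chr17:34024681-34024930, minus strand) had on average the weakest leading promoter peak of the 9 genes, and *Bmi1* (chr2:18676768-18677017, plus strand) had no replicate peak. Each runs 5′ to 3′ along the gene and ends at the base before the RefSeq start, and capitals mark CG dinucleotides.
Suz12: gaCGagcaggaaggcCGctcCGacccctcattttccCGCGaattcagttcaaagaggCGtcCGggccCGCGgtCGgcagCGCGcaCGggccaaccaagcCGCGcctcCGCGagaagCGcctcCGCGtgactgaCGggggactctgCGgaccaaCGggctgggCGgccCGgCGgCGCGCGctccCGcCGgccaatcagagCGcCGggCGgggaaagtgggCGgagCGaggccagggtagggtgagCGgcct
Rnf2: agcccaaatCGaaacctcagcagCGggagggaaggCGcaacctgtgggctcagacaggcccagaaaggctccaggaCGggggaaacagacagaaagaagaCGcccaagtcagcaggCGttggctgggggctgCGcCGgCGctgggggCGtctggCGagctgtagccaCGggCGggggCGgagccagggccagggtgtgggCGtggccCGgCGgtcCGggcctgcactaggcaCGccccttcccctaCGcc
Ring1: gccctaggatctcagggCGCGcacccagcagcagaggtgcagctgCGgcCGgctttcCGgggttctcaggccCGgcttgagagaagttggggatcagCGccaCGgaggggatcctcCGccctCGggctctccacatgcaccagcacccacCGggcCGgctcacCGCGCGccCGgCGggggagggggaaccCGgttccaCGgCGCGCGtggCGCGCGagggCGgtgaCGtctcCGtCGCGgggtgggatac
Bmi1: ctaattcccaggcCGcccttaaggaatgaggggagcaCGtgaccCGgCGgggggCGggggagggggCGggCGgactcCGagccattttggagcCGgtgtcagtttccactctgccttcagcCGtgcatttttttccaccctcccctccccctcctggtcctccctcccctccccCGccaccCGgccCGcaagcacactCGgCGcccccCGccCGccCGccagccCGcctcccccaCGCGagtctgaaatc

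Over the full 300-base windows (250 bases before and 50 after the start), *Suz12* held 41 CG dinucleotides, *Ring1* 37, *Rnf2* 30 and *Bmi1* 23. The 10 member windows, with 2 for *Jarid2*, had a median of 27, beside 14 over 20150 windows of protein-coding genes. The lowest count was 17 at *Eed*. CG content did not order the members by peak strength: *Ring1* held more CG than 92.5% of all windows but ranked near the middle of genes by fold enrichment, and *Bmi1* held as many as *Ezh1*. The GC box (GGGCGG on either strand) was found in 6 of the 9 genes with a window, with 6 matches at *Bmi1* and 3 each at *Suz12* and *Ring1*, and in 47.8% of all windows. The CCAAT box (CCAAT on either strand) was found in 5 genes, with 3 matches at *Ezh2*, and in 37.8% of all windows. The ETS motif CCGGAAG, the GCGCATG core of the NRF1 site, the cAMP response element TGACGTCA, the YY1 motif AAGATGGC and the AP-1 motif TGANTCA were found in 0 of the 9 genes and in 11.9%, 4.94%, 2.31%, 3.11% and 7.00% of all windows. The E-box CACGTG matched once, at *Bmi1*, and in 8.03% of windows.

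**Figure D1:**
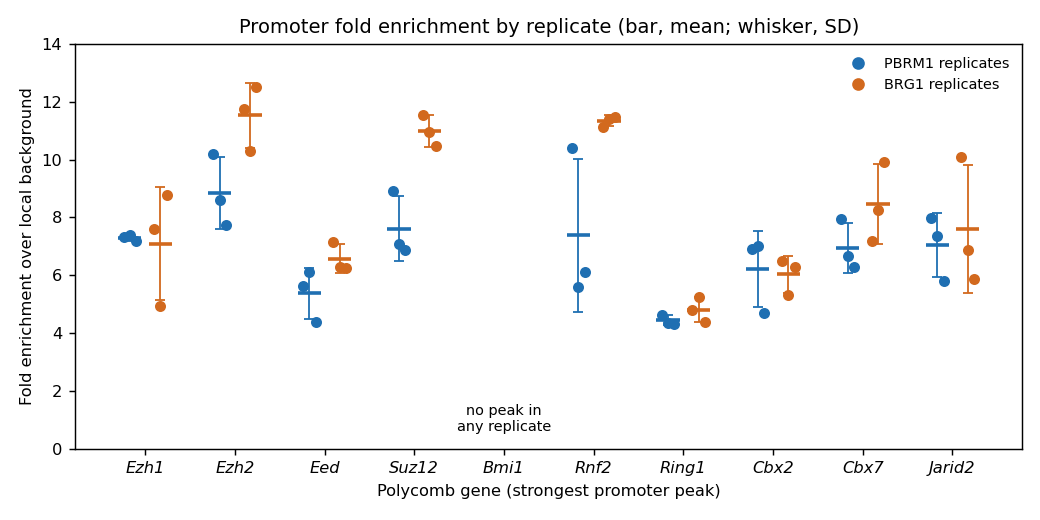
Fold enrichment of the strongest promoter peak (y axis, over the local background) of each Polycomb gene in the 3 PBRM1 and 3 BRG1 replicates, with the mean (bar) and SD (whisker). *Ezh2*, *Suz12* and *Rnf2* reach means of 11.5, 11.0 and 11.3 with BRG1, *Ring1* stays at 4.44 and 4.82, and *Bmi1* has no replicate peak.

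Among the PRC2 genes, the promoter of *Ezh2*, the main H3 methyltransferase, was the strongest of all 10 members on average. Its fold enrichment was 10.2, 8.60 and 7.73 in the PBRM1 replicates and 11.8, 10.3 and 12.5 in the BRG1 replicates. These values ranked above 84.0% to 94.0% of genes in every library, and the mean percentile (± SD, n = 3) was 88.9 ± 2.72 in the PBRM1 replicates and 89.97 ± 5.25 in the BRG1 replicates. In the pooled lists the *Ezh2* peak was also wide: 1426 bp with PBRM1 and 1470 bp with BRG1, at the 97.0 and 96.8 percentile of genes by the length of that peak. BRG1 replicates 1 and 2 held similar peaks of 1272 and 1295 bp. PBRM1 replicates 1, 2 and 3 and BRG1 replicate 3 divided this stretch. Their strongest peak measured 691, 571, 414 and 570 bp, with a separate weaker peak beside it.

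*Suz12*, the scaffold subunit that PRC2 needs for stability, followed. Its fold enrichment was 8.91, 7.07 and 6.87 with PBRM1 and 11.5, 11.0 and 10.5 with BRG1, and its percentile was 79.6 ± 6.32 and 87.6 ± 3.46. The 2 sets of percentiles overlapped, since PBRM1 replicate 3 (84.8) lay above BRG1 replicate 3 (83.9). A weaker second peak inside an intron, with a fold enrichment of 3.79 at chr11:79993531-79993849, was called in the pooled PBRM1 list and in PBRM1 replicate 1 (4.11) and in no BRG1 list.

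*Ezh1*, the second methyltransferase and the form common in nondividing cells, held a peak of nearly equal fold enrichment in the PBRM1 replicates (7.32, 7.38 and 7.18) and a scattered one in the BRG1 replicates (7.59, 4.95 and 8.77). The percentiles were 68.1, 75.7 and 87.4 for PBRM1 and 62.8, 42.3 and 71.9 for BRG1, so that the groups overlapped. BRG1 replicate 2 was the low library. The peak lay on the 5′ end of the gene, with summits at -34 to -1 bp from the nearest TSS in all 6 replicates, and 2 further weak promoter peaks at internal starts (fold enrichment 4.42 and 3.47) were called in the pooled BRG1 list alone.

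*Eed*, which reads the methyl mark and stimulates the enzyme, ranked lower. Its fold enrichment was 5.62, 6.11 and 4.38 with PBRM1 and 7.15, 6.30 and 6.26 with BRG1, at percentiles of 56.5 ± 5.26 and 54.3 ± 4.04. Although modest in height, the *Eed* peak was long, 1179 bp and 1275 bp in the pooled lists (percentiles 91.0 and 93.0). It also lay within 2000 bp of a start of the noncoding gene *E230029C05Rik*, and the lists cannot divide the signal between the pair.

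*Jarid2*, which helps bring PRC2 to its targets, is the longest member (192 kb) and had several promoter sites. The main site, chr13:44730206-44731408, had a fold enrichment of 7.97, 7.35 and 5.82 with PBRM1 and 5.75, 5.04 and 5.86 with BRG1. A second site at chr13:44733299-44734241 was weaker, with means of 4.26 ± 0.50 and 4.46 ± 0.62. Of the 16 annotated *Jarid2* starts, 10 had a peak within 500 bp in all 6 replicates, and all 10 lay within 500 bp of these sites. The 4 starts with a peak in no replicate were the outermost pair at the 5′ end (44729474 and 44729535), which lie upstream of the main site, and the pair inside the gene.

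An internal *Jarid2* site set the BRG1 values of this gene in some libraries. At chr13:44839872-44840418, with its pooled summit at -667 bp from a start inside the gene and near the small gene *Gm22213*, BRG1 replicates 1 and 2 had peaks of 10.1 and 6.87, above those of the main site. BRG1 replicate 3 and the 3 PBRM1 replicates had none there, and the pooled lists gave 10.8 for BRG1 and 4.73 for PBRM1. The 300 bases around its summit held 2 CG dinucleotides (CpG observed/expected 0.0987), against 26 at the main site.

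Among the PRC1 genes, *Rnf2*, the main H2A ubiquitin ligase, had the steadiest BRG1 peak. Its fold enrichment was 11.1, 11.4 and 11.5 with BRG1 and 10.4, 5.60 and 6.13 with PBRM1. The BRG1 percentiles spanned 89.0 to 90.1, whereas the PBRM1 percentiles were 90.3, 57.1 and 77.2, so that PBRM1 replicate 1 matched the BRG1 libraries and the other two lay below them. The *Rnf2* peak measured 1346 bp and 1295 bp in the pooled lists (percentiles 95.7 and 93.5) and also lay within 2000 bp of a start of *Gm36527*.

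*Ring1*, the second ligase, had the lowest mean values of the 9 genes with a replicate peak, although *Ezh1* (4.95) was lower in BRG1 replicate 2. The fold enrichment was 4.64, 4.36 and 4.33 with PBRM1 and 4.82, 5.23 and 4.40 with BRG1. As percentiles these were 44.8, 45.0 and 54.1 against 40.9, 44.4 and 38.7, and every PBRM1 value lay above every BRG1 value. The lowest percentile that a gene with a peak can take depends on how many genes have one. That share was 60.0%, 60.7% and 55.3% in the PBRM1 and 66.1%, 65.1% and 65.0% in the BRG1 replicates. The lowest possible percentile was thus higher with PBRM1. *Ring1* lay not far above it, and its part in the separation was not tested. The gene is 3.89 kb long with close neighbors, and its peak lay within 2000 bp of starts of *H2-Ke6*, *Gm26940*, *Mir219a-1* and *Mir219c*.

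The CBX genes encode the readers of canonical PRC1. *Cbx2* had a fold enrichment of 6.92, 7.01 and 4.71 with PBRM1 and 6.50, 5.32 and 6.27 with BRG1. Its PBRM1 percentiles of 64.4, 72.0 and 58.8 all lay above its BRG1 percentiles of 53.4, 45.0 and 51.9. The pooled BRG1 peak at *Cbx2* was 1487 bp long, at the 97.1 percentile.

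*Cbx7* had a compact peak with a fold enrichment of 7.93, 6.67 and 6.27 with PBRM1 and 7.20, 8.27 and 9.93 with BRG1, at percentiles of 73.7 ± 5.29 and 69.5 ± 10.5. This peak did not lie at the 5′ end of the longest annotated transcripts. It covered a cluster of 5 internal starts at chr15:79932314-79932929. In all 6 replicates no peak lay within 500 bp of the distal starts, the outermost at position 79971119, and 4 of the 9 *Cbx7* starts had a peak in none.

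*Bmi1*, a PCGF partner of the ligases, was the exception. No replicate list held a peak within 2000 bp of any of its 7 starts. The pooled lists, with 38144108 and 37842839 fragments, held weak peaks: PBRM1 peaks of 2.62 at chr2:18677717-18678003 and 3.67 at chr2:18681107-18681315, and a BRG1 peak of 2.83 at chr2:18677783-18678021. These 3 ranked above 3.10%, 39.9% and 6.00% of the peaks of their own list, and the peaks near the first start had summits 727 and 799 bp downstream of it, close to other annotated *Bmi1* starts (-62 and 10 bp). A peak in both pooled lists and in no replicate was found for 0.702% of genes. The next gene upstream, *Commd3*, had a peak at its own start in all 6 replicates, with a fold enrichment of 6.66, 7.52 and 3.86 for PBRM1 and 8.01, 8.74 and 6.22 for BRG1, and with summits at -4904 to -4243 bp from the first *Bmi1* start. A weak peak below the threshold of a replicate list has no value there, so that absence in the replicates says only that no peak was called at their depth.

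**Figure D2:**
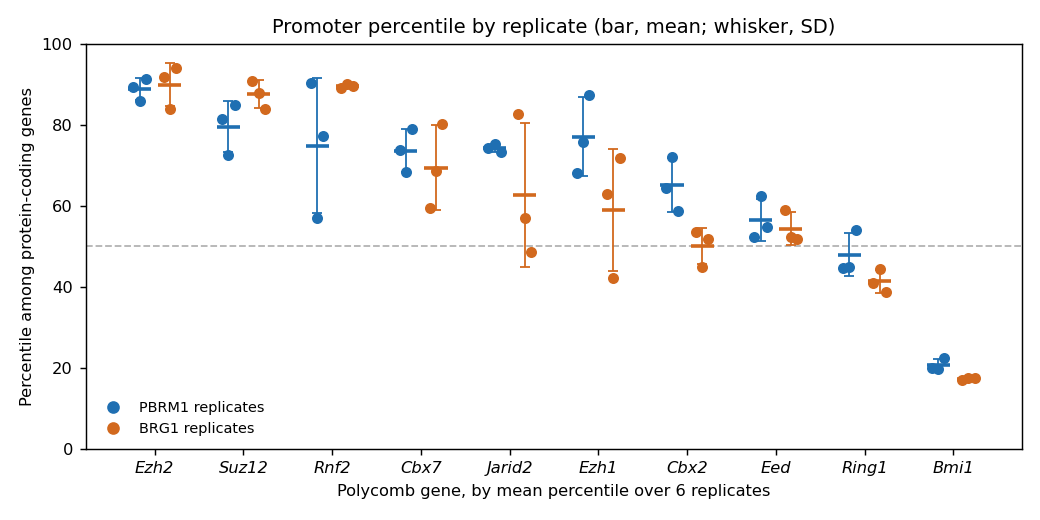
Percentile of the strongest promoter peak among all protein-coding genes of the same library (y axis) for each Polycomb gene, ordered by the mean over 6 replicates, with the mean (bar) and SD (whisker) of 3 replicates per antibody and a dashed line at 50. The genes run from *Ezh2* (mean 89.4) to *Bmi1* (19.0, without a replicate peak), and PBRM1 and BRG1 values are apart at *Cbx2* and *Ring1*.

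Ordered by the mean percentile over the 6 replicates, *Ezh2* (89.4) came first, followed by *Suz12* (83.6), *Rnf2* (82.2), *Cbx7* (71.6), *Jarid2* (68.5), *Ezh1* (68.0), *Cbx2* (57.6), *Eed* (55.4), *Ring1* (44.6) and *Bmi1* (19.0). Neighbors in this order overlapped in range at each step from *Ezh2* to *Ring1*. The step from *Ring1* to *Bmi1* could not overlap, since *Bmi1* holds the lowest rank that all genes without a peak share. *Eed* was above *Ring1* in 6 of 6 libraries, and *Ezh2* was above *Suz12* in 5 of 6. The median of the 10 members was 68.3, beside 50.4 for all protein-coding genes. The latter includes the 29.6% of genes without a peak in any replicate, and no median of CpG-rich genes alone was set beside it.

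The comparison of the antibodies asked whether PBRM1 and BRG1 ranked these promoters differently. *Cbx2* was higher by 15.0 percentile points with PBRM1 and *Ring1* by 6.59, and in both genes the 3 PBRM1 libraries lay above the 3 BRG1 libraries (two-sided exact permutation p = 0.1 each, the smallest that 3 against 3 allows). Thus 2 of 9 members were higher with PBRM1 without overlap and 0 of 9 with BRG1, where 16.3% and 10.8% of the 11388 genes with a peak in all 6 replicates met the same conditions. These shares are close to the background. The weak *Ring1* promoter also lay near the lowest percentile open to a gene with a peak, which was higher in the PBRM1 libraries. The other 7 members overlapped: the difference was 18.1 points at *Ezh1* (exact permutation p = 0.2), 11.5 at *Jarid2* (p = 0.4), 4.21 at *Cbx7* (p = 0.7), 2.17 at *Eed* (p = 0.6), -1.09 at *Ezh2* (p = 0.7), -7.96 at *Suz12* (p = 0.2) and -14.8 at *Rnf2* (p = 0.4), with negative values where BRG1 was higher. At *Jarid2* these values set different sites side by side, since the strongest peak of BRG1 replicates 1 and 2 was the internal one. At the main site alone, a comparison added after the values were seen, the PBRM1 percentiles of 74.2, 75.4 and 73.3 all lay above the BRG1 percentiles of 47.4, 42.9 and 48.6, a difference of 28.0 points (exact permutation p = 0.1, the smallest possible). With it 3 of 9 members were higher with PBRM1, beside 16.4% of genes. Only *Jarid2* was changed in this way, and every other gene kept its strongest peak at any start. The 16.4% is therefore not a like background for this count.

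This split depended on the scale. When a promoter peak was ranked among all peaks of its own list instead of among genes, 0 members were higher with PBRM1 and 2 with BRG1 (*Suz12* and *Rnf2*), beside 3.65% and 32.5% of genes. On that scale *Ring1* turned to -9.21 and *Cbx2* fell to 2.17. The BRG1 replicate lists held more peaks than the PBRM1 lists, and the part of list size in this shift was not tested.

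**Figure D3:**
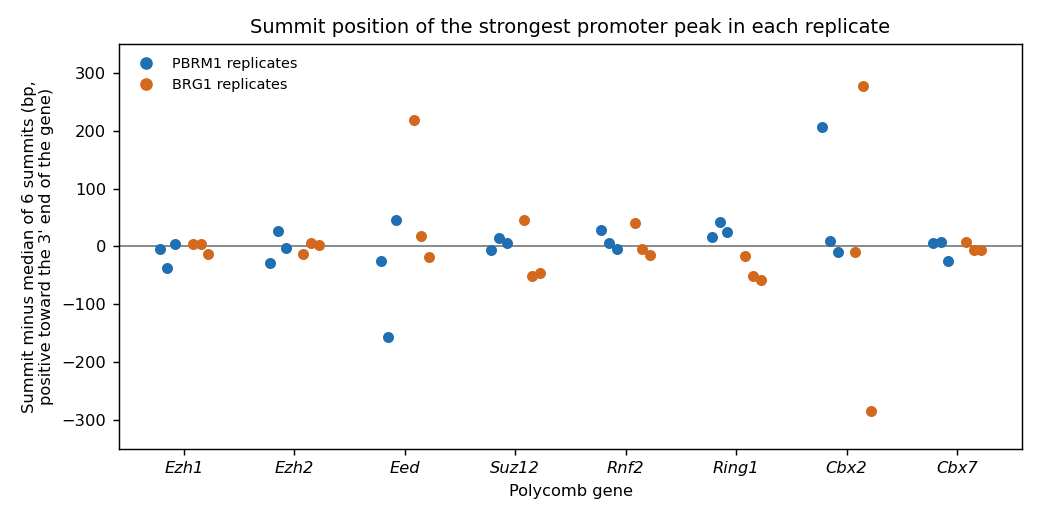
Position of the summit of the strongest promoter peak in each replicate (y axis, bp from the median of the 6 summits of that gene, positive toward its 3′ end) for the 8 members whose replicate peaks share a site. Summits of *Ezh1*, *Ezh2* and *Cbx7* lie within 41, 55 and 32 bp of each other, and those of *Cbx2* spread over 562 bp.

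The summits of the promoter peaks fell on nearly the same bases in both antibodies at several genes. Over the 6 replicates they spread over 32 bp at *Cbx7*, 41 bp at *Ezh1*, 55 bp at *Ezh2* and at *Rnf2*, 96 bp at *Suz12* and 99 bp at *Ring1*, and over 374 bp at *Eed* and 562 bp at *Cbx2*. In the pooled lists the PBRM1 and BRG1 summits coincided at *Ezh1* and *Rnf2* (0 bp), were 3 bp apart at *Ezh2* and 11 bp at *Cbx7*, and were 304 bp apart at *Cbx2*. The median over the 8 members whose strongest pooled peaks overlapped was 31.5 bp, beside 59 bp over 13763 genes.

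*Ring1* was the member in which the antibodies separated by position within a single peak. Its PBRM1 summits lay 143, 168 and 152 bp downstream of the nearest TSS and its BRG1 summits 110, 76 and 69 bp, a mean shift of 69.3 bp along the gene (exact permutation p = 0.1, the smallest possible). Counting *Jarid2*, where the strongest BRG1 peak was at the internal site in 2 replicates, summit positions did not overlap between the antibodies in 2 of 9 members and in 23.8% of the 11388 genes.

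Promoter peaks of the pooled lists were mostly shared. Of 15 PBRM1 peaks at member promoters, 13 overlapped a BRG1 peak (86.7%), and of 15 BRG1 peaks, 12 overlapped a PBRM1 peak (80.0%), against 92.1% and 76.3% at all protein-coding promoters. The peaks without a partner were all weak. They were the intronic *Suz12* peak (3.79) and the internal *Bmi1* peak (3.67) for PBRM1, and the internal *Ezh1* peaks (4.42 and 3.47) and a *Jarid2* peak (2.29) for BRG1.

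Away from promoters, the sites called in the 8 lists were confined to *Cbx7*, *Jarid2* and *Ezh1*. Merged over the 8 lists, the gene bodies held 22 sites, with 14 in *Jarid2*, 7 in *Cbx7* and 1 in *Ezh1*, and 3 of them were present in all 6 replicates. In the pooled lists, 2 of 10 members had a gene body peak with PBRM1 and 3 with BRG1, against 29.0% and 36.4% of genes, and 2 had one in all 6 replicates, against 6.67%. *Ezh2*, although 65.2 kb long, had no gene body peak in any list. Per 10 kb of member sequence there were 0.187 pooled PBRM1 and 0.375 pooled BRG1 peaks, beside 0.169 and 0.291 over all genes. In the replicate lists the members had 0.125, 0.104 and 0.083 PBRM1 peaks per 10 kb, beside 0.041, 0.055 and 0.042 over all genes, and 0.167, 0.167 and 0.125 BRG1 peaks, beside 0.107, 0.091 and 0.094, from 4 to 8 peaks per list in *Cbx7* and *Jarid2*. Of the 12 sites found in 1 to 5 replicates, 7 were called with BRG1 alone and 3 with PBRM1 alone among the replicates. Over all genes, the BRG1 replicate lists held 9722 to 11512 gene body peaks and the PBRM1 lists 4396 to 5938.

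**Figure D4:**
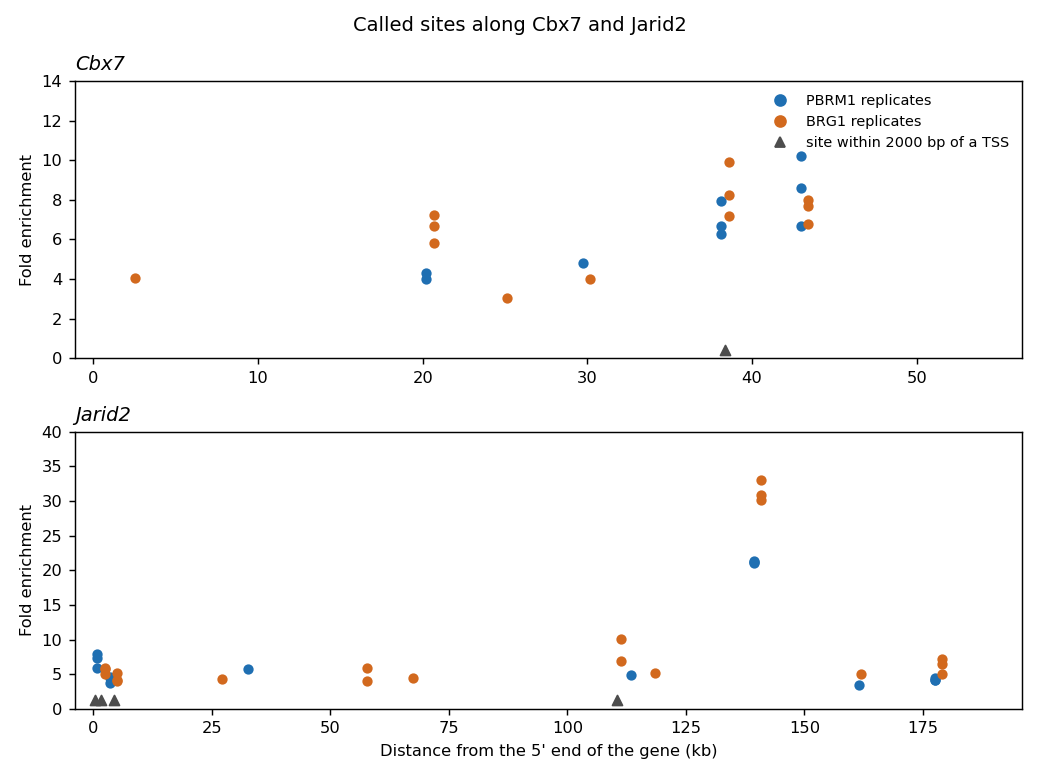
Fold enrichment (y axis) of each called site along *Cbx7* (55.3 kb) and *Jarid2* (192 kb) in the 3 PBRM1 and 3 BRG1 replicates, by distance from the 5′ end of the gene (x axis, kb), with triangles under sites within 2000 bp of a TSS. A single intronic *Jarid2* site stands at 21.0 to 33.0, above all other sites of both genes, in sequence that has 16 near copies elsewhere, and the strongest *Cbx7* sites lie at and just past its internal starts (points of the 2 antibodies are drawn side by side).

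At *Cbx7* the strongest gene body site lay in an intron at chr15:79927479-79928236, 4563 bp from the nearest start. Its fold enrichment was 10.2, 8.57 and 6.66 with PBRM1 and 6.79, 7.99 and 7.70 with BRG1, so that the groups overlapped, yet it exceeded the promoter peak of the same gene in every PBRM1 replicate (pooled 9.38 against 7.51) and lay below it in every BRG1 replicate (pooled 8.11 against 9.16). A second intronic site at chr15:79950151-79951119 favored BRG1 in the lists. It had peaks of 6.65, 7.23 and 5.82 with BRG1, and of 4.32 and 4.02 in PBRM1 replicates 1 and 3 with none in replicate 2.

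The highest peak in any member lay in a *Jarid2* intron, at chr13:44869570-44870011, 28850 bp from the nearest start. Its sequence is not unique to *Jarid2* and has 16 near copies on the assembled chromosomes, and how much of the signal arose at this position was not tested. Its fold enrichment was 21.0, 21.4 and 21.2 with PBRM1 and 33.0, 30.9 and 30.2 with BRG1, and it ranked 19, 16 and 17 among the PBRM1 peaks and 10, 10 and 10 among the BRG1 peaks of the replicate lists. The next highest value of any member site was 12.6, at the *Rnf2* and *Ezh2* promoters in the pooled BRG1 list. Another site, at chr13:44907512-44908616 near the 3′ end, was present in all 6 replicates with means of 4.25 ± 0.15 for PBRM1 and 6.19 ± 1.12 for BRG1.

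The reference sequences (GRCm38) of the strongest *Cbx7* and *Jarid2* gene body sites are shown because only the *Jarid2* site had near copies elsewhere. The bases are 200 around the summit, at chr15:79927853-79928052 (minus strand) and chr13:44869533-44869732 (plus strand), both intronic, with CG dinucleotides in capitals.
Cbx7 intron: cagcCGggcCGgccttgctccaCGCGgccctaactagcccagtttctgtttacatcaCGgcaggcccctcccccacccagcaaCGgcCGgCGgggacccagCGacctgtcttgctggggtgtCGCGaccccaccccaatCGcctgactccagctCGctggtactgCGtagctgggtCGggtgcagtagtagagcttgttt
Jarid2 intron: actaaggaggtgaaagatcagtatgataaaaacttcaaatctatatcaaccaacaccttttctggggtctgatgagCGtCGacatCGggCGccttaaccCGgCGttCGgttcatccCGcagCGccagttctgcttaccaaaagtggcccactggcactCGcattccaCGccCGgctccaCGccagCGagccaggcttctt

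The *Cbx7* stretch held 15 CG dinucleotides and, over 300 bases around the summit, passed the CpG-rich criteria, as did all 10 promoter sites found in all 6 replicates. The *Jarid2* stretch held 14. Over 300 bases around its summit the CpG observed/expected ratio was 0.94, and G and C made up 49.7%, just under the 50% required. Searched against the genome with blastn, the whole *Jarid2* site matched 16 other positions on 13 chromosomes at 90% identity or more over at least 200 bp, with a best identity of 98.9%. The other 17 promoter and 21 gene body sites matched none. Sites shorter than 200 bp, down to 159 bp at a *Jarid2* promoter site, could not meet that length, so the search does not show them to be unique. Of these 16 copies, 2 lay in a pooled PBRM1 peak and 3 in a pooled BRG1 peak, and the copy at chr16:57391113-57391488, in *Cmss1* and *Filip1l*, had a fold enrichment of 29.8, 29.1 and 23.6 with PBRM1 and 35.1, 36.1 and 37.4 with BRG1. The printed *Jarid2* bases also resemble the large ribosomal RNA, whose genes stand in many copies that the assembly does not hold in full. No full sequence of that RNA was used here, and the likeness was not tested. The authors kept only reads of adequate mapping quality, and the part of repeated or ribosomal sequence in the height of the *Jarid2* peak was not tested.

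**Figure D5:**
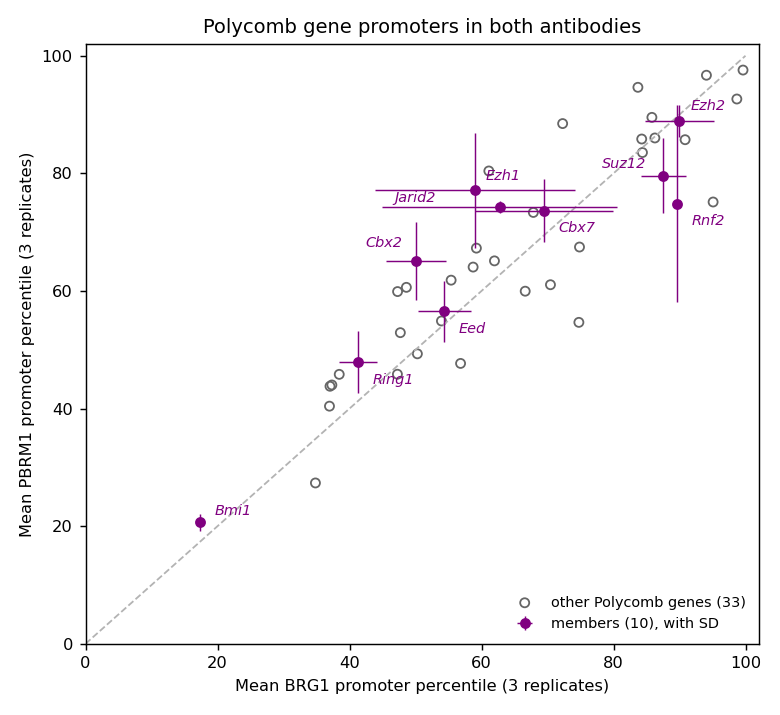
Mean promoter percentile over 3 replicates with BRG1 (x axis) and PBRM1 (y axis) for the 10 members (filled, with SD) and 33 other Polycomb genes (open), with a dashed line of equality. Members run from 17.3 and 20.7 at *Bmi1* to 89.97 and 88.9 at *Ezh2*, and *Mtf2* is highest of the other genes.

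The wider Polycomb system was described by 33 further genes, grouped by role. A promoter peak was present in all 6 replicates in 30 of them, in all 3 BRG1 replicates in 33, and in both pooled lists in 33. For all 6 replicates the share was 51.9% of genes and 84.1% of genes with a CpG-rich promoter, a class that held 24 of the 33. The 3 without it in all 6 were *Kdm6b*, an H3 demethylase (1 PBRM1 replicate), and *Rybp* and *Usp7*, of noncanonical PRC1 (2 PBRM1 replicates each), which had it in every BRG1 replicate. The median percentile of the 33 was 63.5, beside 68.3 for the 10 members. Among the 30, PBRM1 was higher without overlap in 8 and BRG1 in 5, against 16.3% and 10.8% of genes.

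By role, the 7 PRC2 accessory genes had a median percentile of 84.0, the 5 PCGF genes 85.1 and the 3 deubiquitinase genes 80.4, and the 7 CBX and PHC genes had 54.4, the 9 noncanonical PRC1 genes 54.6 and the 2 demethylase genes 51.1. The highest were *Mtf2* (98.6) and *Phf19* (95.4), which help place PRC2 on CpG islands, and *L3mbtl2* (95.7), of noncanonical PRC1. At *Mtf2* the mean fold enrichment was 11.8 with PBRM1 and 16.7 with BRG1, above *Ezh2*. Among the lowest were *Kdm6b* (31.1) and *Rybp* (38.7), both above *Bmi1*, which holds the shared lowest rank. Gene body peaks in all 6 replicates were found in 4 of the 33, *Phc2*, *Kdm2b*, *Bcor* and *Kdm6b*, with up to 7 peaks per replicate list in *Bcor*.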

How the data were processed

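ChIC-Seq peak lists of PBRM1 and BRG1 (3 replicates and 1 pooled list each) from WT D4 mUSCs were grouped by the labels. The authors trimmed and aligned read pairs to mm10 with Bowtie2, filtered by mapping quality, removed duplicates and called peaks with MACS 2.2.7.1. Headers give a q-value cutoff of 0.05, a 10000 bp regional background and no control file, so a peak stands against local background alone. Each deposited list gives the pileup signal at a summit, its fold enrichment over local background and its −log10 q-value. The file headers give the number of fragments. No value is scaled between libraries.

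Peaks were assigned with GENCODE M21 (minimum overlap 1 bp, promoter 2000 bp) in Python 3.11.15 (numpy 2.4.6, pandas 2.3.3, scipy 1.17.1, matplotlib 3.10.9), sequences read with pysam 0.24.0 and copies searched with blastn 2.17.0. The steps were tested on simulated data, in which 6000 of 6000 planted promoter peaks were found. Percentiles were compared by a two-sided exact permutation test (smallest p 0.1). Members and lists were chosen with earlier results of these data known. Named among other Polycomb genes were the 3 highest and 3 lowest mean percentiles, those without a promoter peak in all 6 replicates, those with a gene body peak in all 6, and genes sharing a member's promoter peak, except 1 gene that is not reported here. The cell type markers were read as promoter peaks only. Alternatives were other promoter distances, starts, thresholds, rankings and overlaps, a replicate block and each replicate left out.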

Additional observations from a re-analysis of the deposited data

How the results depend on the processing

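The promoter count of 9 in all 6 replicates was 9 with 1000 bp (beside 50.7% of genes) or a summit inside the window (51.6%). It was also 9 with protein-coding transcripts alone (50.8%) or −log10 q of at least 5 (42.5%). With 5000 bp, which takes in the *Commd3* peak for *Bmi1*, it was 10 (54.5%). With a fold enrichment of at least 5 it was 5 (*Ezh2*, *Suz12*, *Rnf2*, *Cbx7* and *Jarid2*), beside 34.5% of genes. Without any 1 replicate of an antibody the count for that antibody was 9 to 9.

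Members higher without overlap numbered 2 with PBRM1 and 0 with BRG1. By −log10 q they were 2 (*Cbx2* and *Jarid2*) and 1 (*Suz12*), beside 14.4% and 12.1% of genes. Ranked among all peaks of a list they were 0 and 2, beside 3.65% and 32.5%. Without any 1 replicate they were 2 to 3 and 0 to 1: *Ezh1* joined those higher with PBRM1 without PBRM1 replicate 1 or BRG1 replicate 3 and *Jarid2* without BRG1 replicate 1, and those higher with BRG1 gained *Rnf2* without PBRM1 replicate 1, *Suz12* without PBRM1 replicate 3 or BRG1 replicate 3, and *Ezh2* without BRG1 replicate 2. With 1 replicate left out the shares over all genes rose too, to 21.3% to 22.8% with PBRM1 and 14.5% to 16.8% with BRG1. The replicate block was tested with sign flips over same-numbered libraries (smallest p 0.25). It gave 3 members with PBRM1 higher in each pair (*Ezh1*, *Ring1* and *Cbx2*) and 0 with BRG1, beside 25.6% and 17.8% of genes. Same-numbered libraries did not deviate together across 13093 shared peaks (r = -0.040, -0.011 and -0.011). This check cannot tell whether they came from the same preparation, since deviations between replicates may be mostly noise. The block added *Ezh1* and changed no other call.

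Single differences turned sign in 8 of 91 alternatives. By −log10 q, *Cbx7* went to -0.020. Among all peaks of a list, *Eed* went to -17.1, *Ring1* to -9.21 and *Cbx7* to -5.68. Without PBRM1 replicate 2, *Ezh2* went to 0.38 and *Eed* to -0.79, and the ranges without any 1 replicate were -4.06 to 0.92 at *Ezh2*, -0.79 to 4.49 at *Eed* and -0.79 to 9.64 at *Cbx7*. With 1 replicate left out, the other members kept their sign, but some moved by over 1.5 times. *Ring1* went to 3.52 without PBRM1 replicate 3, *Suz12* to -4.45 without PBRM1 replicate 2, and *Ezh1* to 9.74 without BRG1 replicate 2. *Rnf2* went to -22.5 and -5.89 without PBRM1 replicates 1 and 2, and *Jarid2* to 21.5 and 4.45 without BRG1 replicates 1 and 3. The other rankings also gave moves of that size without a change of sign. By −log10 q, *Ring1* went to 2.95, *Eed* to 0.33 and *Jarid2* to 22.8. Among all peaks of a list, *Ezh1* went to 11.0, *Ezh2* to -4.09, *Cbx2* to 2.17 and *Jarid2* to 2.41. The cause was not tested.

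The pooled gene body count of 9 for PBRM1 was 5 with −log10 q of at least 5 and 3 when a peak in all 3 replicates was required, and that of 18 for BRG1 was 4 under the latter. Requiring both remaining replicates gave 3 to 4 for PBRM1 and 4 to 5 for BRG1. Shared peak counts stayed within 1.5 times under both alternatives. Pooled lists reached weak peaks that no replicate list held, and a site without a call has no value. The part of depth in this was not tested.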
